A study of Mus musculus with 9 samples.

Results

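The transcription factor genes Runx1, Gata2, Lmo2, Tal1, Myb, Erg, Fli1, Etv6 and Mecom were followed through the clonal expansion of a mouse acute myeloid leukemia (AML). They were chosen by name, as factors known for their part in blood stem and progenitor cells, and these 9 genes are among 55401 genes in the deposited tables. RNA-Seq covered 9 libraries in 3 groups of 3, each made from spleen cells that had been sorted by a fluorescent color code. All cells descended from lineage-negative bone marrow of C57BL/6-Ly5.1 mice, overexpressed Hoxa9 and Meis1 from a retroviral vector (H9M cells) and carried a barcoding vector that encodes fluorescent proteins. Lethally irradiated C57Bl6/J mice received these cells with helper bone marrow, and donor cells with bright EGFRt, cKit and little or no CD11b were sorted from thawed spleens.

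Pre-malignant libraries came from mouse #15, killed early, and from its clones 33BC-D, 38BC-D, 43BC-D. The de novo expanded group held 38BC-D from mouse #13, 43BC-D from mouse #14 and 33BC-D from mouse #17, all of which had developed leukemia. The stably expanded group held the single clone 34BC-D from these same 3 leukemic mice, so its libraries are 1 clone in several hosts. Every difference from the pre-malignant group is also a difference between mouse #15 and the leukemic mice, and these cannot be told apart. No library outside the stably expanded group held 34BC-D. Traits of this clone and its state of expansion therefore cannot be told apart in either comparison of that group. The table columns name a group but no clone or mouse, so each group's libraries carry numbers from 1 to 3 that pair nothing. Each library held between 10379739 and 15551196 reads on genes, and p-values measure the spread between these libraries.

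Runx1, Gata2, Tal1, Lmo2, Erg and Fli1 bind many of the same enhancers in blood stem and progenitor cells, and several of them bind each other's genes. Runx1 binds DNA as a heterodimer with Cbfb. Lmo2 is a bridge that carries no DNA-binding domain of its own and joins Tal1 and GATA factors in a complex with Ldb1. Erg, Fli1 and Etv6 belong to the ETS family, in which Etv6 is mainly a repressor. Myb keeps immature myeloid cells dividing, Mecom encodes the Evi1 protein and marks stem cells, and several of these genes are altered by translocation or mutation in human leukemia.

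Promoter sequence is shown for Gata2 and Runx1, which had the widest ranges over the 9 libraries among the members with an entry in the RefSeq promoter table (GRCm38.p6). That table matched 7 of the 9 members with 13 windows and had no entry for Lmo2 and Fli1. The windows take the 250 bases before a RefSeq start, and bases that lie in an exon are left out, which leaves 175 bases for the distal Runx1 start. Capitals mark matches on either strand to 3 short motifs. The core of ETS sites is GGAA, that of RUNX factors is TGNGGT, and the third letter string, for zinc fingers of the Gata2 family, is GATAA. One stretch of the proximal Runx1 window, GGAATTCC, holds 2 adjacent ETS matches, one on each strand.
Runx1, distal start, chr16:92826150-92826324, minus strand: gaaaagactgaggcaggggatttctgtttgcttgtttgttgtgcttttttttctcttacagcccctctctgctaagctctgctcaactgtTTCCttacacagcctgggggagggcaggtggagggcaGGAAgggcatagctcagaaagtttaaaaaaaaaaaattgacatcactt
Runx1, proximal start, chr16:92697330-92697579, minus strand: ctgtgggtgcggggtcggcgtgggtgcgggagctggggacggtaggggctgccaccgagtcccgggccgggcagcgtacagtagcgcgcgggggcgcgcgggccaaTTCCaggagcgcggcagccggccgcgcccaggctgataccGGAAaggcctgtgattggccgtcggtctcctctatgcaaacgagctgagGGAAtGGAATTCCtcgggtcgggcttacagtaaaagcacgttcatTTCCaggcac
Gata2, chr6:88193641-88193890, plus strand: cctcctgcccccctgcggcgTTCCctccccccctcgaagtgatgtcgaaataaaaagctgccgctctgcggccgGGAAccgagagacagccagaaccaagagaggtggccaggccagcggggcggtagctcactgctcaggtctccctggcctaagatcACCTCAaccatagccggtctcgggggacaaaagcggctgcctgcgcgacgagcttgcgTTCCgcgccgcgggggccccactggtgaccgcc
The proximal Runx1 window held 6 ETS matches, and the Gata2 window held 3 ETS matches and 1 RUNX match. Among all 32851 RefSeq windows of 250 bases, 93.4% held the ETS string at least once with a median of 3 matches, 22.6% held the string of the Gata2 family and 40.1% held the RUNX string. Of the 13 member windows, 12 held the ETS, 4 the Gata2 family and 2 the RUNX string. These matches describe the letters of the windows and were not linked to binding or to expression.

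Levels differed widely between the members. Counts per 1000000 reads on genes (CPM) were computed for each library from the recovered reads, and levels of different genes are compared only as CPM per kilobase of exon. Myb had the highest level, with a median of 131 CPM per kilobase over the 9 libraries (range 95.03 to 173), followed by Lmo2 with 111 (93.0 to 126), Etv6 with 46.4 (35.6 to 57.8), Fli1 with 36.2 (27.4 to 58.8), Erg with 21.4 (17.9 to 26.1), Runx1 with 19.0 (10.6 to 24.8) and Gata2 with 8.62 (2.88 to 10.9). The ranges overlapped between Myb and Lmo2, between Etv6 and Fli1, between Erg and Runx1 and between Runx1 and Gata2, whereas those of Lmo2 and Etv6 and of Fli1 and Erg did not. Set against 8557 genes with a mean of at least 10 CPM, Myb lay above 97.6% per kilobase, Runx1 above 71.2% and Gata2 above 37.6%.

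Tal1 and Mecom were at the floor of the measurement. Tal1 (chr4:115056426-115071755), the bHLH factor that pairs with E proteins, had 7, 0 and 4 reads in the pre-malignant, 5, 3 and 0 in the de novo expanded and 4, 9 and 0 in the stably expanded group. Mecom (chr3:29951296-30548008) had 3, 8 and 4 reads, 8, 0 and 1 reads, and 0, 4 and 0 reads, in the same order. Over all 9 libraries this makes 32 reads for Tal1 and 28 for Mecom, and a library with 0 reads allows up to 3. The groups overlapped for both genes in every comparison. Both genes stayed below the mean normalized count of 10 that a gene needed to be tested. The antisense gene Mecomos overlaps a Mecom exon and itself had 0 to 7 reads per library, and because the sources used here do not give the strand setting of the counting, reads of the pair cannot be told apart. A difference between groups was not detectable for either gene at this depth.

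Runx1 (chr16:92601466-92826149, minus strand), the DNA-binding subunit of core-binding factor, had 250.4, 298 and 288 CPM in the pre-malignant libraries, 253, 229 and 127 CPM in de novo expanded and 188, 177 and 151 CPM in stably expanded libraries. All stably expanded libraries lay below all pre-malignant ones, and de novo expanded library 3 lay below every other library. Gata2 (chr6:88193891-88207032), a zinc finger factor that stem cells and mast cells need, had 46.5, 39.2 and 46.7 CPM in pre-malignant, 50.1, 59.1 and 15.5 CPM in de novo expanded and 24.7, 39.9 and 49.0 CPM in stably expanded libraries. Its low values were de novo expanded library 3 and stably expanded library 1, and its groups overlapped in every comparison.

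Lmo2 (chr2:103957986-103981878) had 271, 259 and 273 CPM in pre-malignant, 240.2, 244 and 202 CPM in de novo expanded and 213, 217 and 207 CPM in stably expanded libraries, so that all leukemic libraries lay below all pre-malignant ones. Myb (chr10:21124935-21160984, minus strand) had 1170, 1183 and 1057 CPM in pre-malignant, 849, 995 and 1471 CPM in de novo expanded and 1357, 1110 and 1542 CPM in stably expanded libraries. De novo expanded library 3 was high here and the other de novo expanded libraries were the lowest of all 9.

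The ETS factors did not share a pattern. Fli1 (chr9:32422204-32542861, minus strand), which megakaryocytes and stem cells need, had 122, 126 and 125 CPM in pre-malignant, 95.5, 109 and 172 CPM in de novo expanded and 205, 165 and 157 CPM in stably expanded libraries. All stably expanded libraries and de novo expanded library 3 lay above all pre-malignant libraries, and the other de novo expanded libraries lay below them. Etv6 (chr6:134035700-134270158) had 301, 306 and 305 CPM in pre-malignant, 272, 346 and 213 CPM in de novo expanded and 239, 278 and 262 CPM in stably expanded libraries. Its stably expanded libraries lay below its pre-malignant ones. Erg (chr16:95359169-95586593, minus strand), a factor that stem cells need for their maintenance, had 80.0, 70.2 and 62.0 CPM in pre-malignant, 74.0, 90.4 and 62.9 CPM in de novo expanded and 76.3, 85.3 and 66.9 CPM in stably expanded libraries, with overlap between all groups.

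**Figure D1:**
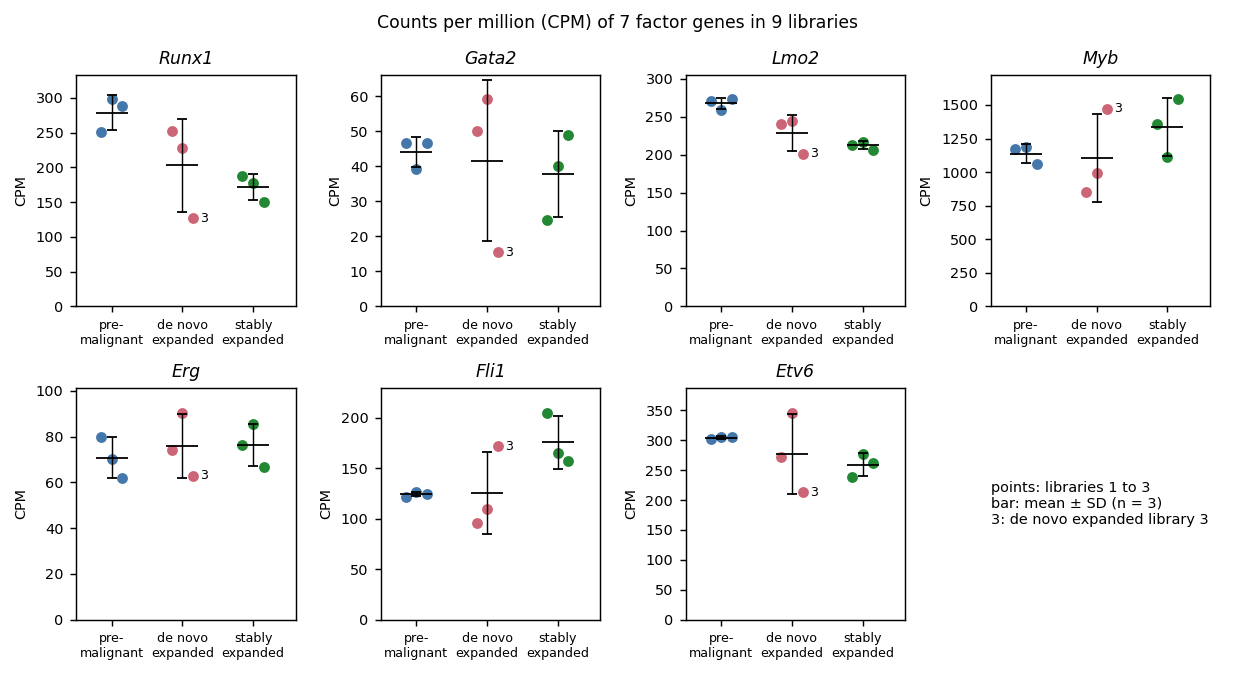
CPM (y axis, from 0) of the 7 members above the count minimum in the 3 groups (x axis), with points for libraries 1 to 3 and bars for the mean and SD (n = 3). Runx1 lies at 151 to 188 CPM in the stably expanded libraries against 250.4 to 298 in the pre-malignant ones, Fli1 at 157 to 205 against 122 to 126, and de novo expanded library 3 is low in Gata2 (15.5 CPM) and Runx1 (127 CPM).

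Spread within the groups was uneven. In the pre-malignant group, from 3 clones, the coefficient of variation of CPM over 3 libraries was 0.813% for Etv6, 1.81% for Fli1 and 2.74% for Lmo2. It was 6.09% for Myb, 9.02% for Runx1, 9.73% for Gata2 and 12.7% for Erg. In the stably expanded group, from 1 clone, it ran from 2.45% for Lmo2 to 32.5% for Gata2. In the de novo expanded group it was 10.3% for Lmo2, 18.3% for Erg, 24.1% for Etv6 and 29.4% for Myb. There it was 32.4% for Fli1, 32.8% for Runx1 and 55.3% for Gata2. De novo expanded library 3 carried much of that spread. The root mean square (RMS) difference of log2(CPM + 1) over the 7 members was 0.23 between de novo expanded libraries 1 and 2 and 0.86 to 0.91 between library 3 and these, compared with 0.36 to 0.62 between library 3 and the stably expanded libraries. Libraries 1 and 2 lay 0.21 to 0.33 from the pre-malignant libraries, which lay 0.13 to 0.17 from each other. Over all genes with a mean of at least 10 CPM, library 3 lay 0.65 to 0.72 from the other de novo expanded libraries and 0.36 to 0.44 from the stably expanded ones. Which clone library 3 holds cannot be read from its column. Gpx3, named here after its values were seen, had 6 reads in library 3 and 207 to 612 reads in the stably expanded libraries.

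The primary granule genes Mpo and Elane moved with these libraries, whereas Ctsg, another such gene, was not low in de novo expanded libraries 1 and 2. Ctsg had 540, 933 and 901 CPM in pre-malignant, 916, 936 and 1198 CPM in de novo expanded and 1394, 1234 and 1268 CPM in stably expanded libraries. Mpo, which encodes myeloperoxidase, had 15796 CPM in de novo expanded library 3, 1637 and 2658 CPM in the other de novo expanded libraries, 6143 to 7038 CPM in the pre-malignant and 7545 to 8915 CPM in the stably expanded libraries. Elane, the neutrophil elastase gene, had 2148 CPM in library 3, 148 and 267 CPM in de novo expanded libraries 1 and 2, 803 to 833 CPM in the pre-malignant and 1232 to 1736 CPM in the stably expanded libraries. The summed level of the granulocyte marker list, with 11 of its 12 genes in the table, ranged from 8226 to 9609 CPM in the pre-malignant, from 3098 to 20767 CPM in the de novo expanded and from 11928 to 17363 CPM in the stably expanded group. The part of granulocyte content in the member differences was not tested, and in bulk samples a smaller share of one cell type and less RNA per cell cannot be told apart.

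**Figure D2:**
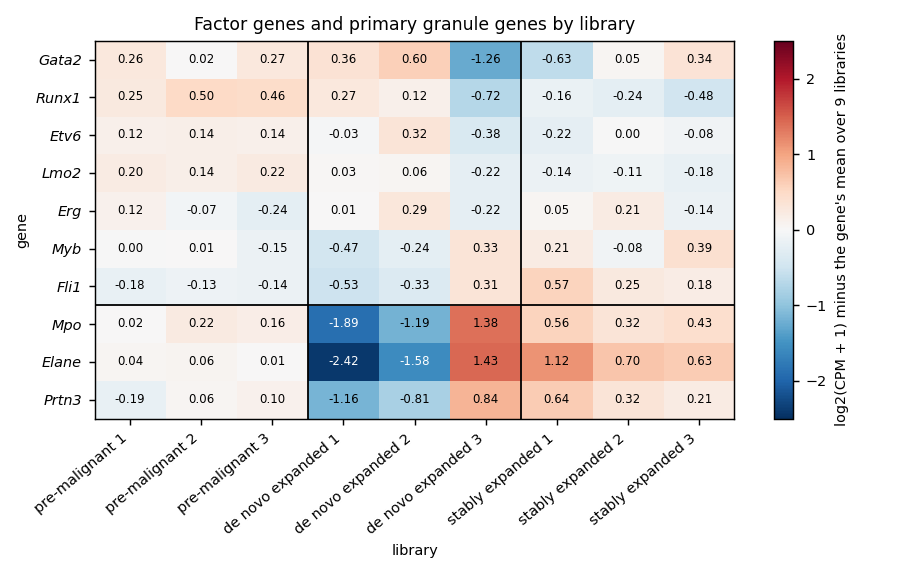
log2(CPM + 1) minus the mean of the gene over 9 libraries (color and number), for 7 members (rows above the line) and 3 primary granule genes chosen after their values were seen (rows below it), by library (columns). De novo expanded library 3 has Gata2 at -1.26, Runx1 at -0.72, Fli1 at 0.31 and Mpo at 1.38, whereas de novo expanded library 1 has Fli1 at -0.53 and Mpo at -1.89.

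Stably against pre-malignant clones showed the clearest differences among the members. Of the 7 members tested, Runx1 and Lmo2 were lower and Fli1 was higher at a Benjamini-Hochberg adjusted p under 0.05, a limit that 7.95% of all 13968 tested genes passed. None of the 3 reached a 2-fold change, so that 0 of 7 members were called by both limits, with edgeR and DESeq2 as well, against 2.75% of all genes in the limma fit. Groups did not overlap for 4 members (Runx1, Lmo2, Etv6 and Fli1) against 30.7% of all genes, and 4 members had an unadjusted p under 0.05 against 25.4%. All tests are limma fits on log2(normalized count + 1) over genes whose normalized count averaged 10 or more, and log2 fold changes are on that scale. The median log2 fold change was -0.23 over the 7 members and 0.00 over all tested genes.

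Runx1 had 3776 ± 301 normalized counts in pre-malignant and 2334 ± 247 in stably expanded libraries (mean ± SD, n = 3 each), a log2 fold change of -0.70 with an SE of 0.10 and a limma adjusted p of 0.00583, or 1.62-fold. It was lower in 3 of 3 stably expanded libraries, and the 95% interval of the log2 fold change ran from -0.93 to -0.47. The adjusted p stayed between 0.00789 and 0.0337 when any 1 of the 6 libraries was left out, and it was 0.142 in 1 limma fit of all 9 libraries.

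Lmo2 had 3626 ± 126 against 2886 ± 35.9 normalized counts (n = 3 each), with a log2 fold change of -0.33, an SE of 0.081 and a limma adjusted p of 0.0348. Fli1 had 1684 ± 12.0 against 2384 ± 365 normalized counts (n = 3 each), with a log2 fold change of 0.49, an SE of 0.11 and a limma adjusted p of 0.0260, or 1.41-fold. Leaving out any 1 library took Lmo2 above the limit, with adjusted p between 0.0565 and 0.113 and log2 fold changes between -0.36 and -0.31, and its limma adjusted p was 0.0575 without the minimum on low values. For Fli1 the limma adjusted p was 0.0694 to 0.0903 without any 1 pre-malignant library and 0.0705 without stably expanded library 1, and it was 0.117 for Lmo2 and 0.226 for Fli1 in 1 fit of all 9 libraries.

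The other members did not pass the test in this comparison. Etv6 had a log2 fold change of -0.23 (SE 0.085, limma adjusted p = 0.122), Gata2 of -0.27 (SE 0.22, limma adjusted p = 0.472), Myb of 0.23 (SE 0.13, limma adjusted p = 0.301) and Erg of 0.11 (SE 0.13, limma adjusted p = 0.623). The 95% interval ran from -0.74 to 0.21 for Gata2, from -0.06 to 0.51 for Myb and from -0.17 to 0.39 for Erg. A 2-fold difference lies outside each interval in this fit of 6 libraries. In 1 limma fit of all 9 libraries the Gata2 log2 fold change was again -0.27 but with an SE of 0.44. A 2-fold lower Gata2 level is not outside the wider interval of that fit. The Gata2 value was 0.01 without stably expanded library 1.

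Read ratios inside each library do not depend on how libraries are scaled. Runx1 had 2.06, 2.36 and 2.31 reads per Fli1 read in the pre-malignant, 2.64, 2.09 and 0.740 in the de novo expanded and 0.916, 1.08 and 0.962 in the libraries of clone 34BC-D. The stably expanded libraries and de novo expanded library 3 had low ratios and did not overlap with the other 5 libraries. Myb had 8.47 to 9.60 reads per Fli1 read in the pre-malignant, 8.56 to 9.10 in the de novo expanded and 6.62 to 9.85 in the stably expanded libraries, with full overlap. The Runx1 and Fli1 pair was chosen after its values were seen.

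De novo expanded against pre-malignant clones gave no member at an adjusted p under 0.05. Among 14195 tested genes 0% passed that limit and 0% were called by limma, 11.3% had an unadjusted p under 0.05, and 19.1% did not overlap between the groups, while among the 7 members 0 had an unadjusted p under 0.05 and only Lmo2 did not overlap. Over all genes edgeR called 0 and DESeq2 called 62, and neither gave a member at an adjusted p under 0.05. Lmo2 had 3737 ± 131 normalized counts in the pre-malignant and 3227 ± 294 in the de novo expanded group (n = 3 each), with a log2 fold change of -0.22 (SE 0.098, limma adjusted p = 0.458). Runx1 had a log2 fold change of -0.50 (SE 0.24, limma adjusted p = 0.470) and a 95% interval from -1.05 to 0.05. For Gata2 the log2 fold change was -0.28 (SE 0.45), for Etv6 -0.15, for Myb -0.06, for Fli1 -0.02 and for Erg 0.11, with limma adjusted p between 0.762 and 0.987.

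Without de novo expanded library 3, which was singled out with its values in view, this comparison took another shape. Gata2 had a log2 fold change of 0.31 (SE 0.14, limma adjusted p = 0.228) instead of -0.28, Fli1 of -0.28 (SE 0.10, limma adjusted p = 0.154), Myb of -0.30 (SE 0.10, limma adjusted p = 0.125) and Runx1 of -0.20 (SE 0.10, limma adjusted p = 0.280). No member passed an adjusted p of 0.05, which 4.35% of all 14224 tested genes then did, and 3 of the 7 members (Gata2, Fli1 and Myb) had an unadjusted p under 0.05 against 21.8% of all genes.

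Stably against de novo expanded clones likewise gave no member that passed. By limma 0.00727% of 13758 genes were called, which was 1 gene, and the same 0.00727% had an adjusted p under 0.05, 4.83% had an unadjusted p under 0.05 and 9.61% did not overlap, against 0 members in each case. Over all genes edgeR called 1 and DESeq2 called 32, again with 0 members at an adjusted p under 0.05. Fli1 came closest, with 1702 ± 570 normalized counts in the de novo and 2384 ± 369 in the stably expanded group (n = 3 each), a log2 fold change of 0.53, an SE of 0.23 and a limma adjusted p of 0.891. Myb had a log2 fold change of 0.31 (SE 0.23) and Runx1 of -0.18 (SE 0.25). Lmo2, Etv6, Gata2 and Erg lay between -0.09 and 0.03, and for Gata2 the 95% interval was as wide as -1.14 to 1.20.

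Without de novo expanded library 3, Fli1 was higher in the stably expanded group with a log2 fold change of 0.78 (SE 0.14, limma adjusted p = 0.0133, 1.72-fold) and Runx1 was lower with -0.48 (SE 0.12, limma adjusted p = 0.0488, 1.39-fold). These 2 of 7 members stand against 6.69% of all 13756 genes at an adjusted p under 0.05 in that fit, and 3 members had an unadjusted p under 0.05 against 20.4%. Myb had a log2 fold change of 0.54 (SE 0.16, limma adjusted p = 0.0755) and Gata2 of -0.56 (SE 0.25, limma adjusted p = 0.254). The lone difference to the fit of all 6 libraries is library 3, so these values describe libraries 1 and 2 of the de novo expanded group. Library 3 was singled out with its values in view. Without de novo expanded library 1 or 2 instead, the log2 fold change was 0.35 and 0.44 for Fli1 and 0.01 and -0.07 for Runx1. The limma adjusted p of both genes was 0.9996 without library 1 and 0.9987 without library 2. All 3 comparisons draw on the same 9 libraries, and any pair of them shares a group.

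**Figure D3:**
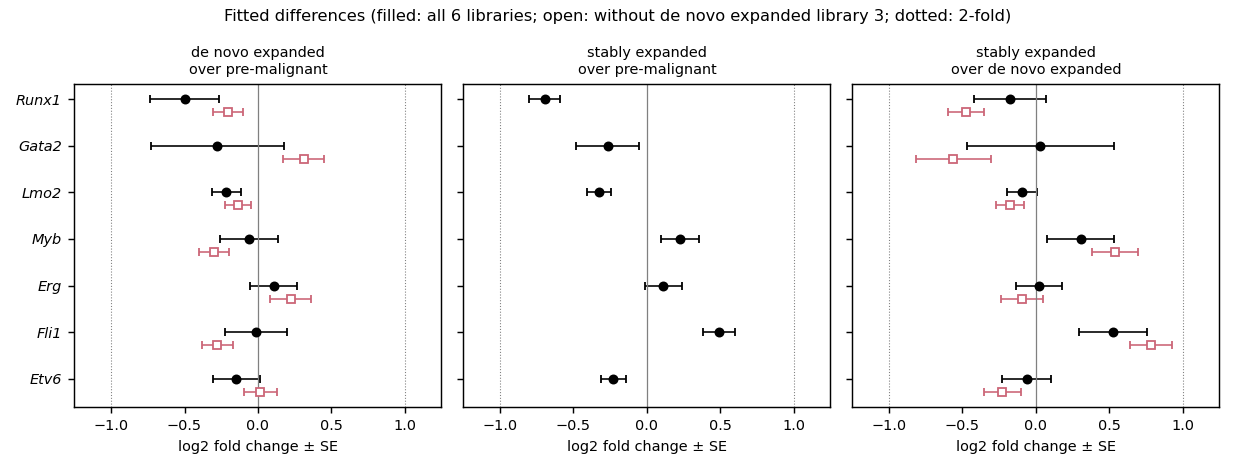
Log2 fold change with SE (x axis) of the 7 tested members (y axis) in the 3 comparisons, with all 6 libraries (filled) and without de novo expanded library 3 (open), and dotted lines at a 2-fold difference. Runx1 at -0.70 and Fli1 at 0.49 stand out in the middle panel, and Gata2 moves from -0.28 to 0.31 in the left panel when library 3 is left out.

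Partners and cofactors of the members gave no call. Of 22 listed genes 20 were tested, with a median log2 fold change of 0.00 between stably expanded and pre-malignant clones. In that comparison 0 were called against 2.75% of all genes. At an adjusted p under 0.05, 2 were lower and 0 higher, against 7.95% of all genes. Cbfa2t3, a corepressor of the ETO family that sits in complexes with Tal1 and Lmo2, had 226, 229 and 234 CPM in pre-malignant and 159.5, 161 and 191 CPM in stably expanded libraries (log2 fold change -0.43, SE 0.0999, limma adjusted p = 0.0273). The acetyltransferase gene Crebbp had 338, 343 and 370.1 CPM against 263, 292 and 263 CPM (log2 fold change -0.36, SE 0.084, limma adjusted p = 0.0299). Between de novo expanded and pre-malignant clones Cbfa2t3 had a log2 fold change of -0.42 and Ep300, the paralog of Crebbp, of -0.23, both with a limma adjusted p near 0.4 (0.399 and 0.412). Between the leukemic groups the smallest p-values were those of Rcor1, a subunit of the CoREST corepressor, with a log2 fold change of 0.25, and of Ldb1, the dimerizing bridge of the Lmo2 complex, with -0.23, and both had a limma adjusted p of 0.891.

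Among relatives of the members 3 were higher and 0 lower at an adjusted p under 0.05 between stably expanded and pre-malignant clones. Of 15 listed relatives 12 were tested, and Ets1 was the only one called. Over all genes in that comparison 7.95% had an adjusted p under 0.05 and 2.75% were called. Ets1, a family member of Fli1 and Erg best known from lymphocytes, had 66.5, 50.6 and 31.1 CPM in pre-malignant, 22.4, 21.4 and 116 CPM in de novo expanded and 168, 100.3 and 112 CPM in stably expanded libraries (log2 fold change 1.39, SE 0.26, limma adjusted p = 0.0126). Its stably expanded libraries and de novo expanded library 3 lay above all others, as they did for Fli1. The limma adjusted p of Ets1 was 0.236 in 1 fit of all 9 libraries, and between stably and de novo expanded clones its log2 fold change was 1.70 (limma adjusted p = 0.891) with all 6 libraries and 2.51 (limma adjusted p = 0.000612) without de novo expanded library 3. Lmo4, the LIM-only relative of Lmo2, had 34.7, 35.8 and 36.6 CPM in pre-malignant and 83.6, 60.4 and 68.4 CPM in stably expanded libraries (log2 fold change 0.98, SE 0.14, limma adjusted p = 0.00464) and so just missed the 2-fold limit, and its de novo expanded libraries had 42.8, 42.2 and 81.4 CPM. Mybl2, the relative of Myb that acts in the cell cycle, was higher than pre-malignant in both leukemic groups, with log2 fold changes of 0.41 in de novo expanded (limma adjusted p = 0.347) and 0.40 in stably expanded clones (limma adjusted p = 0.0334).

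Other stem and progenitor factors gave 2 lower calls and no higher one among 9 tested of 15 in the comparison of stably expanded with pre-malignant clones. Over all genes 2.75% were called there. Satb1, a chromatin organizer, had 92.6, 37.3 and 72.0 CPM in pre-malignant, 97.0, 96.5 and 42.2 CPM in de novo expanded and 17.6, 35.4 and 27.2 CPM in stably expanded libraries (log2 fold change -1.29, SE 0.32, limma adjusted p = 0.0342). Mllt3, a subunit of the super elongation complex that maintains stem cells, had 5.54, 8.08 and 9.19 CPM in pre-malignant and 2.41, 3.77 and 3.85 CPM in stably expanded libraries (log2 fold change -1.16, SE 0.31, limma adjusted p = 0.0453). Satb1 had a limma adjusted p of 0.0583 to 0.118 and a log2 fold change of -1.3394 to -1.0002 without pre-malignant library 1 or 3 or stably expanded library 1 or 3, and Mllt3 had an adjusted p of 0.0592 to 0.142 and a log2 fold change of -1.36 to -0.95 without any one library other than stably expanded library 3. In 1 limma fit of all 9 libraries the adjusted p was 0.146 for Satb1 and 0.134 for Mllt3. Between stably and de novo expanded clones Satb1 had a log2 fold change of -1.51 (limma adjusted p = 0.891), and of -1.90 (limma adjusted p = 0.00320) without de novo expanded library 3. Gfi1, a repressor of stem cells and granulocyte precursors, had 141 to 166 CPM in pre-malignant and 231 to 356 CPM in stably expanded libraries (log2 fold change 0.85, SE 0.15, limma adjusted p = 0.0102). Hlf, a stem cell factor, had 0.835, 1.30 and 2.09 CPM in pre-malignant and 8.51, 9.32 and 2.48 CPM in de novo expanded libraries (log2 fold change 2.10, SE 0.58, limma adjusted p = 0.372). DESeq2 called Hlf here with an adjusted p of 0.0237, and limma did so without de novo expanded library 3, with a log2 fold change of 2.70 and an adjusted p of 0.0102. Over de novo expanded clones, stably expanded clones had a log2 fold change of -1.28 in Hlf (limma adjusted p = 0.891), and of -1.88 (limma adjusted p = 0.0262) without library 3. The RNA-binding gene Msi2 had a log2 fold change of 1.41 in de novo expanded over pre-malignant clones (limma adjusted p = 0.400).

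Genes reported as targets of these factors were split in direction. Of 20 listed genes 16 were tested, with a median log2 fold change of -0.08 between stably expanded and pre-malignant clones. In that comparison 4 were lower and 1 was higher at an adjusted p under 0.05, against 7.95% of all genes. Of these 2 were called, against 2.75% of all genes. Csf1r, the receptor of macrophage colony-stimulating factor and a textbook target of Runx1, had 97.6, 125 and 160 CPM in pre-malignant, 53.7, 83.8 and 12.5 CPM in de novo expanded and 29.1, 56.9 and 32.9 CPM in stably expanded libraries (log2 fold change -1.72, SE 0.23, limma adjusted p = 0.00412). Bcl2, the survival gene that Myb activates, had 78.1, 82.8 and 107 CPM in pre-malignant, 162, 134 and 15.3 CPM in de novo expanded and 31.5, 67.7 and 36.8 CPM in stably expanded libraries (log2 fold change -1.04, SE 0.23, limma adjusted p = 0.0247). The call of Bcl2 was lost without any one library other than stably expanded library 2, with limma adjusted p of 0.0540 to 0.0794, and its log2 fold change was -0.98 with edgeR and -0.99 with DESeq2, while in 1 limma fit of all 9 libraries the adjusted p was 0.460 for Bcl2 and 0.161 for Csf1r. Il6ra, the interleukin 6 receptor gene, had a log2 fold change of -0.92 in stably expanded (limma adjusted p = 0.00455) and of -0.69 in de novo expanded clones (limma adjusted p = 0.390) over pre-malignant ones. Flt3, the receptor of early progenitors, had 222, 296 and 73.3 CPM in de novo expanded and 39.9, 100.4 and 96.3 CPM in stably expanded libraries (log2 fold change -1.21, SE 0.55, limma adjusted p = 0.891), which became -1.80 (limma adjusted p = 0.0161) without de novo expanded library 3, and Spi1, the gene of the ETS factor PU.1, had a log2 fold change of 0.28 in that comparison. In Flt3, Bcl2 and Csf1r alike, de novo expanded library 3 lay below both other libraries of its group.

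**Figure D4:**
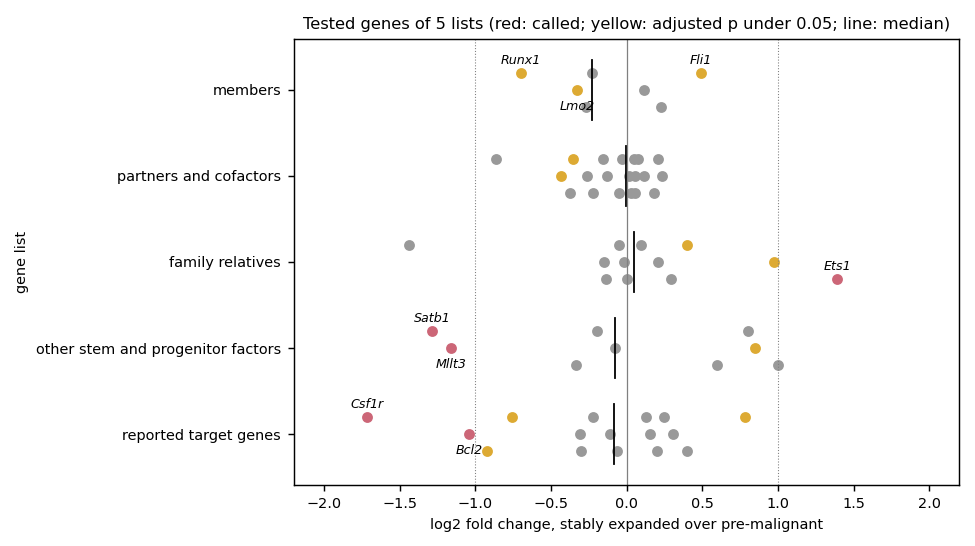
Log2 fold change of stably expanded over pre-malignant clones (x axis) for every tested gene of 5 lists (y axis), with called genes in red, genes with an adjusted p under 0.05 in yellow, other genes in grey and the list median as a line. The 7 members lie between -0.70 (Runx1) and 0.49 (Fli1), whereas Csf1r lies at -1.72 and Ets1 at 1.39.

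Other genes were ranked by the distance of their profiles to each member, so the genes named are close by selection. For each tested member the 3 protein-coding genes with the smallest RMS difference of centred log2(CPM + 1) profiles over the 9 libraries were taken from 8394 genes with a mean of at least 10 CPM. Nfkbid was nearest to Runx1 (RMS difference 0.11), before Arhgap17 and Mtmr14. Hdac1 was nearest to Fli1 (0.061), before Ppp2cb and Sgpp1. Hdac1 had 50.5, 49.0 and 50.9 CPM in pre-malignant, 41.8, 45.8 and 73.8 CPM in de novo expanded and 79.0, 64.5 and 64.0 CPM in stably expanded libraries, high in the same 4 libraries as Fli1. Ugt1a7c was nearest to Gata2 (0.13), before Padi2 and Plek, Coro7 to Lmo2 (0.035), before Gpatch8 and Mia2, and Dnajc1 to Myb (0.057), before P2rx1 and Epg5. Tube1 was nearest to Erg (0.071), before Gstcd and Hus1, and Proser1 to Etv6 (0.067), before Eif4e3 and Herc4. Among the members themselves the nearest profiles were those of Lmo2 and Etv6 (0.12), Erg and Etv6 (0.19) and Myb and Fli1 (0.20), and the farthest were those of Gata2 and Fli1 (0.82). A profile without any change would lie 0.16 from Lmo2, 0.18 from Erg and 0.20 from Etv6. Small distances to these genes therefore need not mean a shared pattern. All distances describe 9 libraries that share clones and mice.

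Annotated genes inside introns of Fli1 and Etv6, on the same strand, carried many reads. Summed over 5 such genes in Fli1, there were 52.1, 66.4 and 48.0 CPM in pre-malignant, 37.8, 32.9 and 76.0 CPM in de novo expanded and 79.7, 57.9 and 57.0 CPM in stably expanded libraries, so that de novo expanded library 3 and stably expanded library 1 were the highest, and the groups overlapped. Of the 5, Gm37474 had the smallest p between stably expanded and pre-malignant clones (log2 fold change 0.62, SE 0.22, limma adjusted p = 0.104), and the other 4 lay between -0.15 and 0.12. In Etv6 the 2 such genes together had 73.5, 102 and 57.5 CPM in pre-malignant, 46.2, 49.3 and 43.3 CPM in de novo expanded and 53.1, 36.0 and 47.2 CPM in stably expanded libraries, and all leukemic libraries lay below all pre-malignant ones. Their log2 fold changes between stably expanded and pre-malignant clones were -0.88 for Gm43982 (SE 0.25, limma adjusted p = 0.0565) and -0.64 for Gm43984 (SE 0.20, limma adjusted p = 0.0799), against -0.23 for Etv6. Antisense genes that overlap an exon had at most 12 reads per library in Runx1 (Gm26626), 41 in Myb (Gm26577) and 55 in Etv6 (Gm17089).

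Genes of the gate and the model were read in all libraries, without an unsorted or untransduced library to compare with. Over the 9 libraries Ptprc, which encodes CD45, had 310 to 385 CPM, Hoxa9 315 to 687 CPM and Meis1 535 to 1099 CPM. Kit had 245 to 287 CPM in pre-malignant, 142 to 274 CPM in de novo expanded and 200.3 to 231 CPM in stably expanded libraries. Its stably expanded libraries lay below its pre-malignant ones, but not at a limma adjusted p under 0.05. Over all tested genes 30.7% did not overlap in that comparison. Itgam, which encodes CD11b, had 40.7 to 49.9 CPM in pre-malignant and 58.0 to 85.7 CPM in stably expanded libraries (log2 fold change 0.61, SE 0.17, limma adjusted p = 0.0485). Genes of the cell type marker lists also moved. Between stably expanded and pre-malignant clones, 7.95% of all tested genes had an adjusted p under 0.05 and 2.75% were called. Of 11 tested granulocyte markers 7 were higher at that adjusted p and 5 were called. Of 7 tested B cell markers 3 were called lower, among them Pax5. Cd79b, the highest gene of the B cell list, went the other way. It had 6.91, 10.1 and 4.66 CPM in pre-malignant and 14.6, 9.73 and 17.8 CPM in stably expanded libraries. Erythroid markers had a median log2 fold change of -1.87 over 7 tested genes with 0 calls. The summed level of the B cell list of 8 genes was 19.2 to 24.7 CPM in pre-malignant, 7.91 to 14.6 CPM in de novo expanded and 12.1 to 20.5 CPM in stably expanded libraries, and of the 9 tabulated erythroid genes it was 24.9 to 56.1, 3.33 to 20.3 and 4.82 to 32.7 CPM.

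Mast cells, platelets and endothelium also express Gata2, Tal1, Fli1 or Erg. The mast and basophil list of 10 genes summed to 39.3 to 61.8 CPM in pre-malignant, 17.3 to 146 CPM in de novo expanded and 68.2 to 137 CPM in stably expanded libraries, most of it from Hdc, and Mcpt4 was at 0 in all 9 libraries. The 9 platelet genes summed to 3.58 to 4.18, 2.00 to 3.22 and 2.15 to 3.43 CPM, with Ppbp, Gp1bb and Treml1 at 0 in all libraries. Endothelial genes, 10 in the list, summed to 243 to 267, 128 to 255 and 114 to 175 CPM, mostly from Pecam1, which leukocytes express too, while Cdh5 had 0 to 6 reads per library. Of the 3 endothelial genes tested between stably expanded and pre-malignant clones, 1 was called lower and 1 higher. Pecam1 was lower (log2 fold change -1.01, SE 0.15, limma adjusted p = 0.00557). Flt1 went against the sum and was higher (log2 fold change 1.39, SE 0.26, limma adjusted p = 0.0115). T cell genes summed to 146 to 166, 116 to 176 and 119 to 162 CPM, nearly all from Thy1, while Cd3e had 0 to 8 reads per library. According to the paper, the barcoding vector also encodes a surface tag with a Thy1 domain. Reads of this tag and of the Thy1 gene were not told apart. Macrophage genes summed to 91.7 to 189, 61.4 to 244 and 175 to 230.2 CPM, mostly from Adgre1 and Vcam1, while C1qa had 0 to 6 reads per library. The part of these cells in the member differences was not tested.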

How the data were processed

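RNA-Seq of color-sorted cKit+ spleen cells was analysed in 9 libraries, 3 for each group, which the labels name; no other experiment of the study was analysed here. According to the study's methods, small numbers of thawed cells were sorted into lysis buffer, libraries were made with a stranded total RNA kit for picogram input, and the nf-core/rnaseq workflow was run against GRCm38.p6 and GENCODE gene models. The submitters' processing notes name Trim Galore 0.6.4, STAR 2.6.1d and featureCounts 1.6.4. The authors deposited 3 tables, one per pair of groups, whose values per library are a signal, namely read counts divided by DESeq2 size factors (normalized counts). The tables also hold the authors' own fold changes, Wald statistics and p-values, which were not used. Every table has 55401 genes.

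Whole reads were recovered from the steps of the normalized counts (at least 99.99% of values whole to within 0.05 reads) and a library's reads did not differ between its 2 tables. CPM were computed from these reads. Depth was 10379739 to 15551196 reads on genes, and a count of 0 allows up to 3 reads, which covers counting error only.

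The main test was limma 3.58.1 in R 4.3.3, applied to log2(normalized count + 1) with a mean-variance trend, two-sided, over the 6 libraries of a pair of groups. Genes needed a mean of 10 normalized counts. Calls needed a Benjamini-Hochberg adjusted p under 0.05 over all genes tested and a 2-fold difference, and the script was tested on simulated data. An exact permutation test of 3 against 3 libraries cannot go below p = 0.1, so none was used. Alternatives were pseudocounts of 0.1 and 5, no minimum or a minimum of 50, centring on the median, edgeR 4.0.16, DESeq2 1.42.0, 1 fit of all 9 libraries, no fold limit, and leaving out each library. Python 3.11.15 with pandas 2.3.3, numpy 2.4.6 and matplotlib 3.10.9 was used for levels and figures.

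All 9 members are named. A fixed rule served for partners and cofactors, family relatives, other stem and progenitor factors and reported target genes. Every called gene and the 2 genes with the smallest p in each comparison are named from these lists. Also named are genes of the sort and the model, the 3 nearest profiles of each member, marker genes at 0 and the highest gene of several marker lists. Genes such as Gpx3, Elane, Prtn3, Ctsg, Flt1 and Pax5 and the genes inside introns were picked with their values in view. The same holds for the choice to show fits without de novo expanded library 3. The members and all lists were chosen with earlier results of these data known. Coordinates and exon lengths are those of the GRCm38.p6 annotation. One further feature that all groups share is not reported here.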

Additional observations from a re-analysis of the deposited data

How the results depend on the processing

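No paired analysis was possible because the columns of the tables name a group but neither a clone nor a mouse. No member was called in any comparison under any alternative that kept the 2-fold limit, and without that limit 3 members were called between stably expanded and pre-malignant clones, among 1110 genes. Numbers of genes called moved more. Between de novo expanded and pre-malignant clones the 0 calls became 5 without a minimum, 62 with DESeq2, 5 in 1 fit of all 9 libraries and 0 to 214 with 1 library left out. Between stably expanded and pre-malignant clones the 384 calls became 6 in 1 fit of all 9 libraries and 206 to 452 with 1 library left out. Between stably and de novo expanded clones the 1 call became 2 without a minimum, 32 with DESeq2, 2 in 1 fit of all 9 libraries and 0 to 508 with 1 library left out. The highest of these counts in both comparisons with the de novo expanded group came without its library 3. For the other changes the cause was not tested.

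Directions of members turned as follows. Fli1 in de novo expanded over pre-malignant clones had a log2 fold change of 0.0151 with edgeR and 0.0198 with DESeq2, and Gata2 in stably over de novo expanded clones had -0.1288 with edgeR and -0.1296 with DESeq2. With 1 library left out, de novo expanded over pre-malignant values ranged from -0.6314 to 0.3124 for Gata2, from -0.2986 to 0.1124 for Myb, from -0.0208 to 0.2236 for Erg, from -0.2758 to 0.1618 for Fli1 and from -0.315 to 0.0175 for Etv6. Gata2 in stably expanded over pre-malignant clones ranged from -0.4914 to 0.0078. Stably over de novo expanded values ranged from -0.4756 to 0.0068 for Runx1, from -0.5629 to 0.3854 for Gata2, from -0.0953 to 0.1537 for Erg and from -0.2298 to 0.1073 for Etv6. None of these values had an adjusted p under 0.05 apart from that of Runx1 without de novo expanded library 3. Depth limits Tal1 and Mecom, which were not tested, and 3 libraries per group limit the rest.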
